A study of Mus musculus with 8 samples.

Results

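The 10 genes of cytosolic nucleic acid sensing described here were followed through tumour endothelial cells (ECs) of mice given an intratumoural injection of cGAMP, a ligand of STING, or of PBS. They were chosen by name, as the sensors, adaptors and kinases of this pathway with its brake Trex1, among the 20408 genes listed in any of the 8 libraries. The set was named Tmem173 (STING), Mb21d1 (cGAS), Ddx58 (RIG-I), Ifih1 (MDA5), Dhx58 (LGP2), Mavs, Tbk1, Ikbke, Zbp1 and Trex1. Of these 10 genes, 9 had rows in the tables and 8 were high enough to be tested. Ikbke was too low for the test, and the expression of Trex1, which encodes a DNA exonuclease, was not analysed here.

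Double-stranded DNA in the cytosol is bound by cGAS, which makes cGAMP. cGAMP binds STING on the endoplasmic reticulum, and STING then recruits the kinase TBK1 (and the related kinase IKKε, encoded by Ikbke), which phosphorylates IRF3 and leads to transcription of type I interferon. RIG-I and MDA5 bind double-stranded RNA and signal through MAVS on mitochondria to the same kinases, LGP2 tunes that signal, and ZBP1 binds Z-form nucleic acids and can start cell death through RIPK3. Several of these sensors are themselves known to be induced by interferon.

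Single-cell 3′ libraries (10x Chromium) came from CD31+ ECs sorted as live and CD45-, from adult mice, 3 h after the injection. In the spontaneous model, tumours arise in MMTV-PyMT mice, in which the MMTV promoter drives the polyoma middle T oncogene in mammary epithelium. In the implanted model, tumour cells of such mice were cultured briefly and placed in the mammary fat pad of female recipients. Each model received PBS or cGAMP, and the 4 groups had 2 mice each, named below by model and treatment (spontaneous PBS, for example). By the methods, the injected agonist was the 3′3′ form of cGAMP. Labels and methods disagree on the strain, c57bl/6 in the former and FVB in the latter, so the strain is not settled. By the methods, females of the spontaneous model were treated from 9 weeks of age and recipients of the implanted model were 8 to 9 weeks old at implantation.

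The libraries held 654 to 2025 cells and 7863535 to 16506086 UMIs, 8204 cells and 97421522 UMIs in all. A Pecam1 UMI (the gene of CD31) was present in 7159 cells, and 1045 cells had none. All 7 endothelial markers checked were found, and their summed mean level in Pecam1 > 0 cells was 5398 to 6514 CPM. Replicate 1 of implanted cGAMP stood apart, with a median of 3049 UMIs in its Pecam1 > 0 cells against 9523 to 14708 in the other libraries. In the whole series, 7 cell barcodes were shared between libraries, by 14 cells. Levels are given in CPM, the mean over cells of each cell's UMIs scaled to 1000000. They were tested with limma on log2(CPM + 1), a gene was called at a Benjamini-Hochberg adjusted p under 0.05 over all genes tested, and ± is the standard error (SE) of the log2 fold change.

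cGAMP raised the RNA sensors and Zbp1 in ECs of both models, while cGAS and MAVS were not called in either. In spontaneous tumours 4 of the 8 tested members rose (Zbp1, Dhx58, Ifih1 and Ddx58) and none fell. In implanted tumours 6 rose, these 4 with Tbk1 and Tmem173, and none fell. For comparison, 12.7% of the 10424 genes tested were called in spontaneous tumours, 5.09% as higher. In implanted tumours 25.0% were called, 8.6% as higher. Of all called genes 40.2% were higher in spontaneous and 34.3% in implanted tumours, and 64.5% and 51.7% with median-of-ratios scaling, which moved no member's direction among those called. The members' median log2 fold change was 0.88 in spontaneous and 0.94 in implanted tumours, where the median over all genes was -0.10 in both. Both models' libraries entered 1 fit. Without the shallow replicate 1 of implanted cGAMP, the log2 fold change in implanted tumours was 2.46 for Zbp1, 2.28 for Dhx58, 2.40 for Ifih1, 1.20 for Ddx58 and 0.69 for Tbk1, and these 5 were still called.

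**Figure D1:**
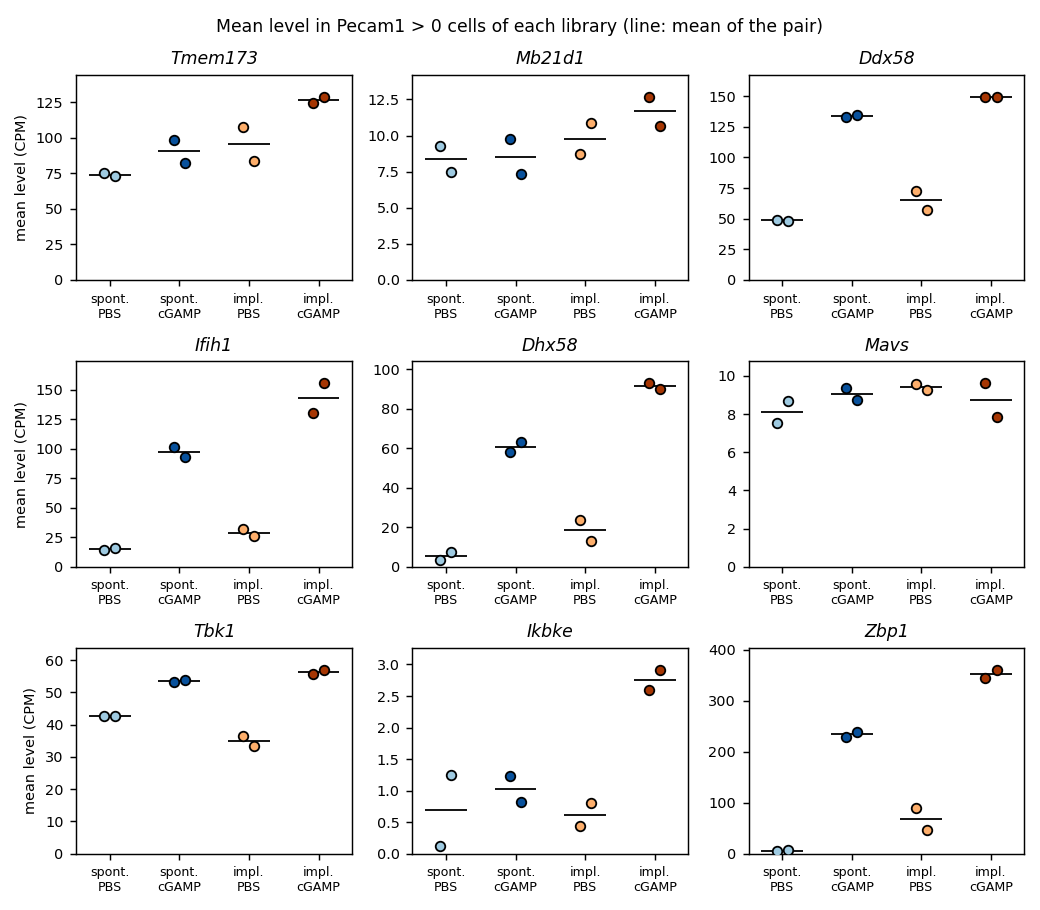
Mean level (CPM, y axis from 0) of each of the 9 listed genes in the Pecam1 > 0 cells of every library, by group (points: libraries; line: mean of the pair). In each model Zbp1, Dhx58, Ifih1, Ddx58, Tbk1 and Tmem173 stood higher in both cGAMP libraries than in both PBS libraries. Tbk1 and Tmem173 were not called in spontaneous tumours. Mavs stayed between 7.55 and 9.60 CPM.

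STING, the receptor of the injected cGAMP, moved little in these cells. The mean level of Tmem173 in Pecam1 > 0 cells was 75.2 and 72.8 CPM in the spontaneous PBS libraries and 98.4 and 82.5 CPM after cGAMP. In implanted tumours it was 108 and 83.7 CPM after PBS and 124 and 129 CPM after cGAMP. Within each model the PBS and cGAMP libraries did not overlap, whereas the spontaneous cGAMP and implanted PBS libraries did. The log2 fold change of Tmem173 was 0.28 ± 0.13 in spontaneous tumours (limma, adjusted p = 0.177), which was not called, against 0.41 ± 0.13 in implanted tumours (adjusted p = 0.0414), a 1.33-fold rise. The call in implanted tumours was lost in 9 of 18 alternatives, without implanted PBS replicate 2 (0.23, adjusted p = 0.282) and without implanted cGAMP replicate 1 (0.44, adjusted p = 0.0725) or 2 (0.38, adjusted p = 0.112) among them. After cGAMP, Tmem173 was higher in implanted than in spontaneous tumours by 0.49 ± 0.13 (adjusted p = 0.0349), a call also lost in 9 of 18 alternatives, among them without spontaneous cGAMP replicate 2 (0.36, adjusted p = 0.235) or 1 (0.61, adjusted p = 0.0571) and without implanted cGAMP replicate 1 (0.51, adjusted p = 0.0706) or 2 (0.46, adjusted p = 0.0815). After PBS the difference between the models was 0.36 ± 0.13 (adjusted p = 0.122).

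The make-up of the Pecam1 > 0 cells by vessel-type markers moved with the treatment in both models. In implanted tumours, cells with a high lymphatic-marker score were 5.0% and 3.56% of them after PBS and 10.7% and 9.27% after cGAMP. The arterial-marker share there was 16.6% and 21.97% after PBS and 9.48% and 13.7% after cGAMP. The proliferative-marker share was 8.7% and 10.9% against 0.78% and 0.50%, and the unclassed share 30.1% and 27.5% against 45.6% and 43.9%. In spontaneous tumours the arterial-marker share was 14.9% and 12.5% after PBS and 9.1% and 9.2% after cGAMP. The proliferative-marker share there was 4.97% and 2.995% against 0.90% and 0.72%, and the lymphatic-marker shares overlapped. Within classes, Tmem173 in implanted tumours was at 42.2 and 37.7 CPM after PBS and 61.9 and 82.2 CPM after cGAMP in arterial-marker cells. In tip-marker cells it was at 100.1 and 104.9 against 126 and 131 CPM, and in lymphatic-marker cells at 96.1 and 109 against 179 and 292 CPM. The treatments overlapped in venous-marker, AQP7-marker and unclassed cells. Without proliferative-marker cells the implanted change was 0.36 and was not called (limma, adjusted p = 0.0772). The part of the other shares in the change over all Pecam1 > 0 cells was not tested.

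Mb21d1, which encodes cGAS, was read with 64 to 193 UMIs per library and was not called. Its level was 9.31 and 7.48 CPM in spontaneous PBS, 9.76 and 7.32 CPM in spontaneous cGAMP, 8.74 and 10.8 CPM in implanted PBS and 12.7 and 10.7 CPM in implanted cGAMP libraries. The PBS and cGAMP libraries overlapped in both models. The log2 change after cGAMP was 0.02 in spontaneous tumours (95% interval -0.46 to 0.49) and 0.24 in implanted tumours (-0.24 to 0.71), and neither was called. The gene lies on chromosome 9 at 78430526-78443237 (GRCm38, minus strand, GENCODE vM21).

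The 3 RIG-I-like receptors all rose in both models. Dhx58, whose product LGP2 binds RNA but lacks the signalling domain of its relatives, was at 3.70 and 7.40 CPM in spontaneous PBS and at 58.0 and 63.0 CPM in spontaneous cGAMP libraries. In implanted tumours Dhx58 was at 23.9 and 13.0 CPM after PBS and at 92.9 and 89.9 CPM after cGAMP. Every cGAMP library exceeded every PBS library. The log2 fold change was 3.29 ± 0.29 in spontaneous (limma, adjusted p = 6.95e-05), and implanted tumours had 2.31 ± 0.29 (adjusted p = 0.000566).

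Ifih1, which encodes the sensor of long double-stranded RNA, was at 14.1 and 16.3 CPM in spontaneous PBS and at 101 and 93.3 CPM in spontaneous cGAMP libraries. In implanted tumours Ifih1 was at 31.8 and 25.9 CPM after PBS and 131 and 155 CPM after cGAMP. It rose 6.07-fold in spontaneous (log2 2.60 ± 0.13, limma, adjusted p = 1.62e-06) and 4.84-fold in implanted tumours (2.27 ± 0.13, adjusted p = 8.92e-06). Ddx58, the sensor of short RNA ends and of their phosphate groups, also rose. Its level was 49.3 and 48.4 CPM in spontaneous PBS, 133 and 135 CPM in spontaneous cGAMP, 73.0 and 57.2 CPM in implanted PBS and 149 and 150 CPM in implanted cGAMP libraries. The log2 fold change of Ddx58 was 1.44 ± 0.11 in spontaneous (adjusted p = 2.69e-05), against 1.20 ± 0.11 in implanted tumours (adjusted p = 9.65e-05). Dhx58 lies on chromosome 11 at 100694884-100704271, Ifih1 on chromosome 2 at 62595798-62646255 and Ddx58 on chromosome 4 at 40203773-40239828 (GRCm38, minus strand). These 3 receptors were called in each of the 19 alternatives in spontaneous and 18 in implanted tumours.

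Mavs, the adaptor of these receptors (chromosome 2, 131234063-131248025, plus strand), was not called. Its level was 7.55 and 8.70 CPM in spontaneous PBS, 9.36 and 8.74 CPM in spontaneous cGAMP, 9.59 and 9.28 CPM in implanted PBS and 9.60 and 7.86 CPM in implanted cGAMP libraries. The log2 change after cGAMP was 0.14 in spontaneous (95% interval -0.28 to 0.56) and -0.11 in implanted tumours (-0.52 to 0.31).

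Upstream sequence of 2 receptors that rose together and of their adaptor, which was not called, is shown because interferon regulatory factors bind repeats of GAAA in promoters. The sequences are the 250 bases before the annotated start, 5′ to 3′ on the gene's strand, from RefSeq (GRCm38.p6), and capitals mark GAAA and its complement TTTC. Ddx58 is shown from chromosome 4, 40239826-40240075 (minus strand), Ifih1 from chromosome 2, 62646256-62646505 (minus strand), and Mavs from chromosome 2, 131233813-131234062 (plus strand).
Ddx58: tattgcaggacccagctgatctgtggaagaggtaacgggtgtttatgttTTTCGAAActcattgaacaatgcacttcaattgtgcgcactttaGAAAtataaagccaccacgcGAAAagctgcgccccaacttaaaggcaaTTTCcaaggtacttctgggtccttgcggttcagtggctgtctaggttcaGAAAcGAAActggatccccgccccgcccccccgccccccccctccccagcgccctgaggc
Ifih1: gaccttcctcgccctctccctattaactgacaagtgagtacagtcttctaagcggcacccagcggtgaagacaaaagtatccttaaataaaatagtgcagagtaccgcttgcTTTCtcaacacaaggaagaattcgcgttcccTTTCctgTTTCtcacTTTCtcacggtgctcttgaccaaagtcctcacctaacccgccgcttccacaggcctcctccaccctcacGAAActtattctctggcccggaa
Mavs: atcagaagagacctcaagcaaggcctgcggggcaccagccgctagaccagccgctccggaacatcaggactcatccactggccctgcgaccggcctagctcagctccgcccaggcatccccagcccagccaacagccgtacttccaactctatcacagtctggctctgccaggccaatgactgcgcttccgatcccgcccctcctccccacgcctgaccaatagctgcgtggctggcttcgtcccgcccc

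The motif searched was the core of the interferon-stimulated response element, a pair of GAAA copies with 2 bases of any kind between them, on both strands. It was in 2.98% of the 32851 promoters of the table over the same 250 bases, and in none of the promoters of the 7 members the table holds. Its shorter part, GAAA or TTTC, was counted after the values were seen. It occurred 7 times before Ddx58, 5 times before Ifih1 and 0 times before Mavs, where the median over all promoters was 2. Copies of the same 4 letters came as close as 1 base apart before Ddx58 and 3 bases apart before Ifih1. The closest were 4 bases apart before Ikbke, 5 before 1 promoter of Trex1, 24 before Mb21d1 and 25 before Tbk1. This spacing was not counted over all promoters. Mb21d1 and Ikbke had 4 such matches, Tbk1 had 2, and the 2 promoters of Trex1 had 1 and 2. Tmem173, Dhx58 and Zbp1 had no entry in the table. These are matches of letters within 1 window.

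Of the 2 kinases, Tbk1 (chromosome 10, 121546455-121586787, minus strand) rose in implanted tumours. The level of Tbk1, the kinase that STING and MAVS both use, was 36.4 and 33.5 CPM in implanted PBS and 55.8 and 56.8 CPM in implanted cGAMP libraries, a log2 fold change of 0.67 ± 0.09 (limma, adjusted p = 0.000928). In spontaneous tumours it was 42.7 and 42.5 CPM after PBS and 53.2 and 53.8 CPM after cGAMP. The libraries did not overlap there either, and the change of 0.32 ± 0.09 lay next to the threshold (adjusted p = 0.0511; 0.023 to 0.195 over 19 alternatives, 9 of which called it). Between the models the response differed by 0.35 ± 0.13 (adjusted p = 0.295). Ikbke (chromosome 1, 131254343-131279606, minus strand) was found with 3 to 32 UMIs per library in Pecam1 > 0 cells and with at most 2.91 CPM. The implanted cGAMP libraries held its highest levels, 2.60 and 2.91 CPM, against 0.13 to 1.25 CPM in the other 6.

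Zbp1 had the largest log2 change of the members in both models, in implanted tumours by less than its error over Dhx58. It lies on chromosome 2 at 173206612-173218923 (GRCm38, minus strand, GENCODE vM21). Its level was 5.19 and 6.50 CPM in spontaneous PBS and 228 and 240 CPM in spontaneous cGAMP libraries, a 34.4-fold rise (log2 5.11 ± 0.23, limma, adjusted p = 9.99e-07). In implanted tumours it was 88.7 and 47.1 CPM after PBS and 345 and 360 CPM after cGAMP, a 5.38-fold rise (2.43 ± 0.23, adjusted p = 0.000115). The spontaneous PBS libraries lay lowest, the implanted PBS libraries next and both pairs of cGAMP libraries above them, with no overlap. The share of Pecam1 > 0 cells with a Zbp1 UMI moved likewise. Among cells thinned to 2000 UMIs each it was 0.81% and 1.08% in spontaneous PBS, 35.03% and 32.8% in spontaneous cGAMP, 14.0% and 7.50% in implanted PBS and 48.1% and 48.5% in implanted cGAMP libraries. Before thinning these shares were 4.46% and 6.49%, 74.3% and 74.5%, 36.5% and 24.5%, and 63.1% and 80.6%. Thinning kept 863 of 965 and 554 of 601 cells in spontaneous PBS, 648 of 670 and 641 of 693 in spontaneous cGAMP, 911 of 1000 and 1027 of 1097 in implanted PBS, and 949 of 1529 and 565 of 604 in implanted cGAMP libraries. No cell type lacking Zbp1 was at hand to measure the share that free RNA gives, and the lowest shares seen are those of spontaneous PBS.

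**Figure D2:**
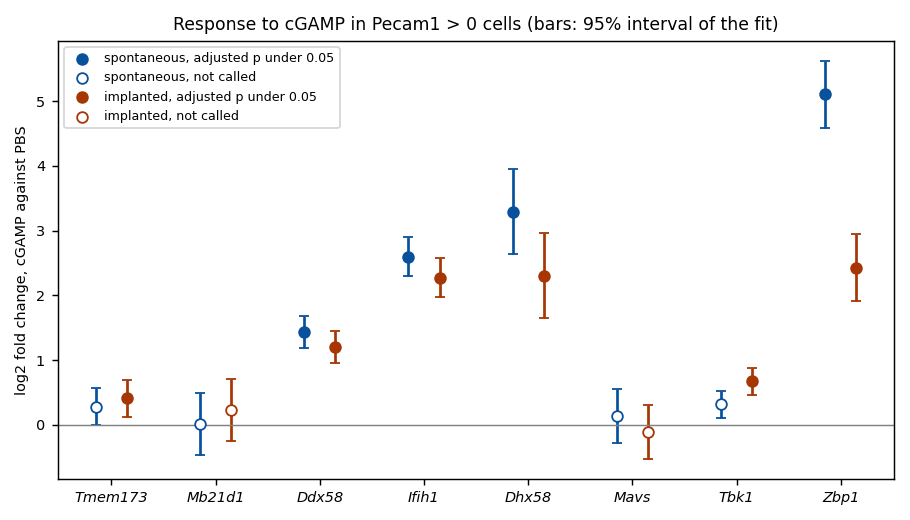
Log2 fold change after cGAMP (y axis) of the 8 tested members in Pecam1 > 0 cells, for spontaneous (blue) and implanted tumours (brown). Bars are 95% intervals of the limma fit, and filled points have an adjusted p under 0.05. Zbp1 is the member whose intervals stand clear of each other, at 5.11 and 2.43.

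The responses of the 2 models were compared directly. Zbp1 was the 1 member of 8 whose response differed, with a log2 difference (implanted minus spontaneous) of -2.68 ± 0.33 (limma, adjusted p = 0.021), where 0.662% of all genes were called. The call was lost without spontaneous PBS replicate 1 (-2.54, adjusted p = 0.0641), without spontaneous cGAMP replicate 1 (-2.71, adjusted p = 0.0702) or 2 (-2.64, adjusted p = 0.154), and with no filter on low genes (adjusted p = 0.149). Dhx58 had a difference of -0.98 ± 0.41 (adjusted p = 0.345). For the other 6 members the difference lay between -0.33 and 0.35 and was not called.

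The models already differed after PBS. In implanted tumours Zbp1 was higher by 3.27 ± 0.23 (limma, adjusted p = 0.000151), Dhx58 by 1.57 ± 0.29 (adjusted p = 0.0131) and Ifih1 by 0.87 ± 0.13 (adjusted p = 0.00501), 3 of 8 members where 7.83% of all genes were called. These PBS libraries also enter the responses. The call of Dhx58 was lost without implanted PBS replicate 1 (1.16, adjusted p = 0.089) and without spontaneous PBS replicate 1 (1.15, adjusted p = 0.0581), and with no filter on low genes (adjusted p = 0.0728). Ddx58 was at 0.40 ± 0.11 (adjusted p = 0.0599). After cGAMP, 2 of 8 members were higher in implanted tumours, Tmem173 and Ifih1 (0.55 ± 0.13, adjusted p = 0.0281), where 13.8% of all genes were called. The call of Ifih1 was lost without implanted cGAMP replicate 2 (0.42, adjusted p = 0.0977) and without spontaneous cGAMP replicate 1 (0.60, adjusted p = 0.0885) or 2 (0.49, adjusted p = 0.183). That call of Ifih1 was also lost with UMIs summed per library (0.42, adjusted p = 0.0611) and with no filter on low genes (adjusted p = 0.0761). Zbp1, at 0.59 ± 0.23, was not called after cGAMP (adjusted p = 0.121).

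Markers of other cells moved with some groups. The share of Pecam1 > 0 cells that also carried at least 3 markers of another lineage was 6.63% and 9.32% in spontaneous PBS, 24.3% and 18.6% in spontaneous cGAMP, 4.1% and 3.099% in implanted PBS and 16.9% and 10.1% in implanted cGAMP libraries. All 8 mural markers were found, and their summed level was 216 and 588 CPM in spontaneous PBS and 909 and 686 CPM in spontaneous cGAMP libraries. The summed level of the 7 immune markers was 26.7 and 14.2 CPM in implanted PBS and 195 and 71.2 CPM in implanted cGAMP libraries, and 13.1 to 28.9 CPM in spontaneous ones. Fibroblast markers summed to 15.0 to 150 CPM. Epithelial markers summed to 55.6 to 184 CPM except in implanted cGAMP replicate 1, with 401 CPM. Without the cells that carried 3 such markers, the same 4 members were called in spontaneous tumours, and Tbk1 besides (0.38, adjusted p = 0.0342). In implanted tumours Tmem173 was no longer called (0.35, adjusted p = 0.0751) and the other 5 were.

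Vessel types were approached with lists of marker genes that hold no member. A cell was put in the class whose list scored highest if that score was at least 1 SD above the mean of Pecam1 > 0 cells. This gave 979 arterial, 855 tip, 1071 venous, 869 AQP7, 299 proliferative and 407 lymphatic cells and left 2679 without a class. These classes are ranges of a score, and 523 cells lay within 0.1 SD of the limit. In each class the median score of every other list was at most 0.10 SD, and the median depth was 10310 to 18160 UMIs. Each class was compared with the other Pecam1 > 0 cells of the same libraries.

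STING differed between these classes. In arterial-marker cells the level of Tmem173 was lower in 8 of 8 libraries, at 31.2 to 82.2 CPM (median 40.9) against 77.6 to 136.5 CPM (median 100.2) in the other cells (log2 -1.16 ± 0.09, limma, adjusted p = 4.81e-08). In venous-marker cells it was higher in 8 of 8, at 91.0 to 196 CPM (0.64 ± 0.10, adjusted p = 0.000218), and in lymphatic-marker cells higher in 7 of 8, at 96.1 to 292 CPM (0.80 ± 0.16, adjusted p = 0.00165). It was lower in AQP7-marker cells (-0.51 ± 0.10, adjusted p = 0.0024), which carry genes of fatty acid uptake such as Cd36 and Fabp4 in their list, and in proliferative-marker cells (-0.67 ± 0.15, adjusted p = 0.00454). In tip-marker cells, at the front of sprouts, Tmem173 was at 0.10 ± 0.08 (adjusted p = 0.406). These 5 calls were kept in every alternative run.

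**Figure D3:**
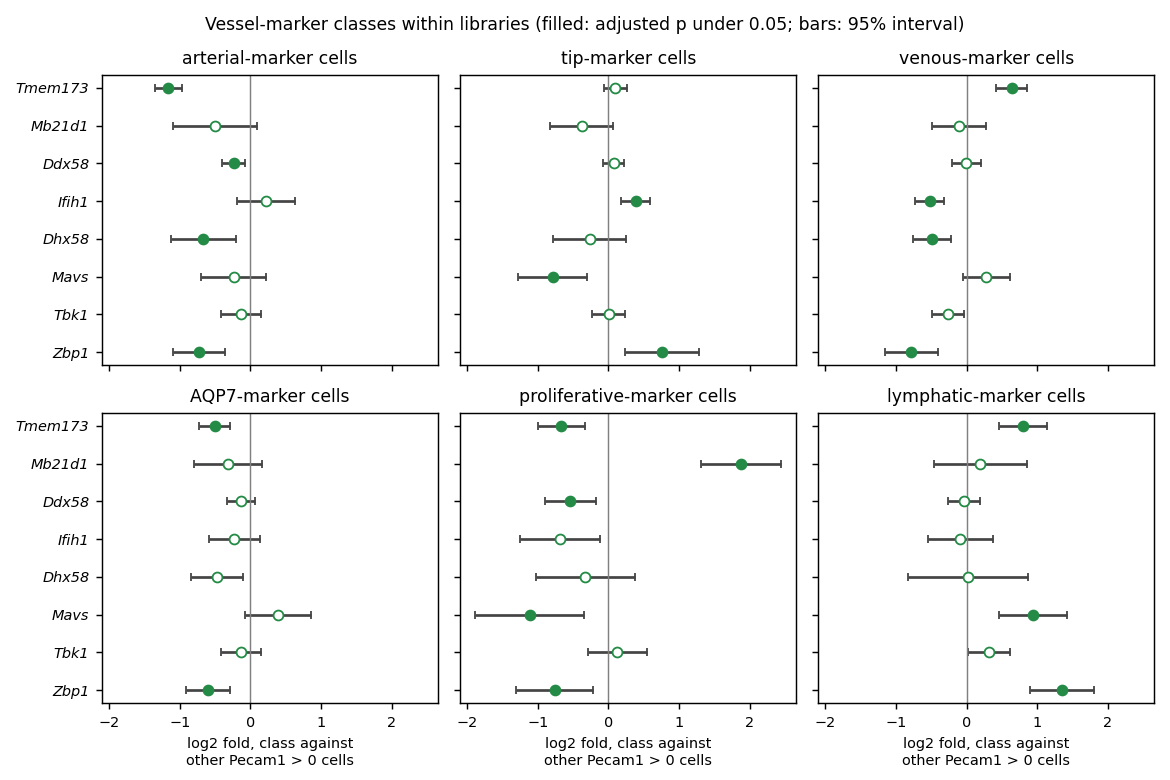
Log2 fold (x axis) of each tested member in the cells of a vessel-marker class against the other Pecam1 > 0 cells of the same libraries. Bars are 95% intervals of the limma fit and filled points have an adjusted p under 0.05. Tmem173 lies at -1.16 in arterial-marker and 0.80 in lymphatic-marker cells, and Mb21d1 at 1.88 in proliferative-marker cells.

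Zbp1 was called in every class and in both directions, in proliferative-marker cells in only 2 of 6 alternatives. In lymphatic-marker cells it was higher in 8 of 8 libraries (log2 1.35 ± 0.21, limma, adjusted p = 0.000232). There its level was 23.0 to 26.4 CPM in spontaneous PBS, 411 to 442 CPM in spontaneous cGAMP, 204 to 259 CPM in implanted PBS and 451 to 477 CPM in implanted cGAMP libraries. Over all Pecam1 > 0 cells the group means were 5.85, 234, 67.9 and 352 CPM in this order. The fold between class and all cells was thus larger after PBS than after cGAMP in each model. Zbp1 was also higher in tip-marker cells (0.76 ± 0.24, adjusted p = 0.0328), where the spontaneous PBS libraries had 26.0 and 20.2 CPM. That call was lost without spontaneous PBS replicate 1 (0.48, adjusted p = 0.0665) or 2 (0.59, adjusted p = 0.0952). It was lower in venous-marker (-0.78 ± 0.17, adjusted p = 0.00328), arterial-marker (-0.73 ± 0.17, adjusted p = 0.00328) and AQP7-marker cells (-0.60 ± 0.15, adjusted p = 0.0107). After cGAMP its level was above 100 CPM in all libraries of these 5 classes.

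**Figure D4:**
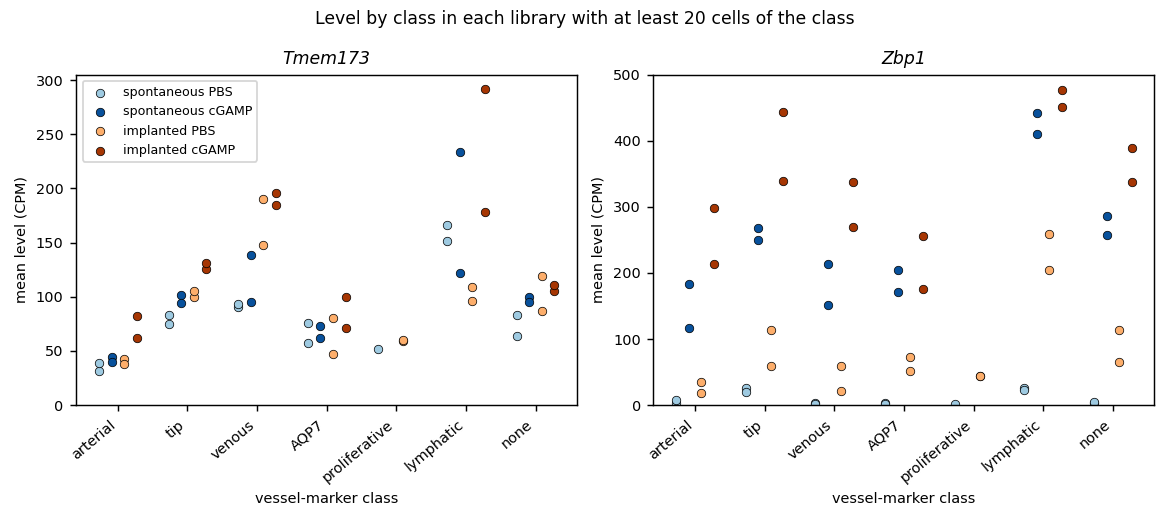
Mean level (CPM, y axis from 0) of Tmem173 and Zbp1 in each vessel-marker class, 1 point per library with at least 20 cells of the class, coloured by group. Arterial-marker cells hold 31.2 to 44.8 CPM of Tmem173 outside implanted cGAMP, and Zbp1 is above 100 CPM in every cGAMP library shown.

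The receptors and MAVS differed by class as well. Ifih1 was higher in tip-marker cells in 8 of 8 libraries (log2 0.38 ± 0.10, limma, adjusted p = 0.00732) and lower in venous-marker cells in 8 of 8 (-0.52 ± 0.10, adjusted p = 0.000773). Dhx58 was lower in venous-marker (-0.49 ± 0.12, adjusted p = 0.00843) and arterial-marker cells (-0.66 ± 0.22, adjusted p = 0.0255), and Ddx58 was lower in arterial-marker cells by little (-0.24 ± 0.08, adjusted p = 0.0237). The arterial calls of Dhx58 and Ddx58 were lost without implanted PBS replicate 2 (adjusted p = 0.0632 and 0.053). That of Dhx58 was also lost without implanted PBS replicate 1 (adjusted p = 0.0784) or either implanted cGAMP library (0.0791 and 0.0727), and that of Ddx58 without spontaneous cGAMP replicate 2 (0.0731). At a limit of 1.5 SD the arterial call of Ddx58 (adjusted p = 0.0687) and the call of Ifih1 in tip-marker cells (adjusted p = 0.137) were lost. Mavs was higher in lymphatic-marker cells in 8 of 8 libraries, at 9.43 to 26.5 CPM against 7.36 to 9.27 CPM (0.95 ± 0.22, adjusted p = 0.00549). It was lower in tip-marker cells in 8 of 8 (-0.79 ± 0.23, adjusted p = 0.0195), a call lost without implanted PBS replicate 2 (adjusted p = 0.0521) or spontaneous PBS replicate 1 (adjusted p = 0.0522), and it rested there on 2 to 25 UMIs per library.

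Proliferative-marker cells held the cGAS transcript at a higher level than the rest. Only 3 libraries had at least 20 such cells, replicate 1 of spontaneous PBS and both of implanted PBS, with 27.6, 27.0 and 38.3 CPM of Mb21d1 against 6.997 to 8.35 CPM in the other cells (log2 1.88 ± 0.26, limma, adjusted p = 7.92e-05). These levels rest on 41, 46 and 89 UMIs. In the same cells Ddx58 (-0.54, adjusted p = 0.0262), Mavs (-1.12, adjusted p = 0.0294) and Zbp1 (-0.76, adjusted p = 0.0365) were lower, and each of these 3 calls was lost without implanted PBS replicate 1 (adjusted p = 0.0702, 0.145 and 0.229). Without implanted PBS replicate 2 the calls of Ddx58 and Mavs were lost (adjusted p = 0.204 and 0.114). That of Zbp1 was also lost at a limit of 1.5 SD (adjusted p = 0.0535), with a pseudocount of 5 CPM (0.056) and among cells with at least 2000 UMIs (0.0524). Among cells of that depth the call of Ddx58 was lost too (-0.41, adjusted p = 0.0511). Of all genes tested, 35.3% were called for arterial-marker cells (4 of 8 members), 25.6% for tip (3), 27.6% for venous (4), 14.5% for AQP7 (2), 30.7% for proliferative (5) and 28.2% for lymphatic ones (3). With 8 members and these backgrounds, the counts say little about the members as a set.

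Ikbke, too low for the test, stood higher in lymphatic-marker cells. Its level there was 1.81 to 14.1 CPM (median 9.22) and was higher than in the other Pecam1 > 0 cells, at 0.05 to 2.26 CPM, in 8 of 8 libraries. The levels rest on 1 to 12 UMIs per library, and this pattern was picked out after its values were seen.

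The other cells of the sort, without a Pecam1 UMI, were shallow, with medians of 1105 to 2383 UMIs. Each of these 1045 cells was put in the lineage whose list had the highest share of markers detected. At least 3 markers of that list were needed, and cells with tied lists were left out. This gave 463 endothelial, 95 mural, 29 epithelial, 18 immune and 6 fibroblast cells and left 434 without a lineage. Tmem173 was the 1 member of 8 that was called, higher in Pecam1 > 0 cells of 8 of 8 libraries (72.8 to 129 against 18.7 to 95.7 CPM). The log2 fold was 1.03 ± 0.22 (limma, adjusted p = 0.00705), where the median over all genes was 0.35 and 11.7% of genes were called, and the call was lost among cells with at least 2000 UMIs (1.28, adjusted p = 0.0546). Zbp1 followed the treatment in the Pecam1 = 0 cells too. Its level there was 2.22 and 4.43 CPM in spontaneous PBS, 345 and 209 CPM in spontaneous cGAMP, 177 and 88.1 CPM in implanted PBS and 377 and 506 CPM in implanted cGAMP libraries. In the mural-marker cells it was 205 and 107 CPM in the spontaneous cGAMP libraries (29 and 34 cells, 52 and 56 UMIs) against 11.5 CPM in the 1 spontaneous PBS library with at least 20 such cells (28 cells, 7 UMIs). Tmem173 in Pecam1 = 0 cells is a level from few UMIs per cell. Beyond the fit of cells with at least 2000 UMIs, the part of the difference in depth was not tested.

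The rest of the pathway was read from 7 lists of 72 genes, of which 64 passed the filter. In spontaneous tumours 16 rose and 4 fell, which is 25.0% and 6.25% of them, where 5.09% of all genes rose and 7.59% fell. In implanted tumours 21 rose and 5 fell, which is 32.8% and 7.81%, where 8.6% of all genes rose and 16.4% fell. The share that fell was thus no higher than over all genes in either model. Of the 17 tested partners of MAVS, TBK1 and IKKε, 3 rose and 1 fell in spontaneous and 5 rose and none fell in implanted tumours (median log2 fold change 0.07 and 0.21). Irf7, the interferon regulatory factor that amplifies the interferon response, went from 23.7 ± 4.96 to 1407 ± 20.1 CPM (mean ± SD, n = 2, as for the other CPM values with an error) in spontaneous and from 81.0 ± 22.5 to 1407 ± 188 CPM in implanted tumours. With it rose Rnf135 and Trim25, ubiquitin ligases that act on RIG-I. Trim25 went from 59.5 ± 1.53 to 120 ± 3.54 CPM in spontaneous tumours. The fall in spontaneous tumours was of Tomm70a, an import receptor of mitochondria (-0.36 ± 0.09, limma, adjusted p = 0.0332).

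Of the 7 tested effectors of RNA sensing, 5 rose in each model (median 1.02 in spontaneous and 0.94 in implanted tumours), and these were Oas1a, Eif2ak2, Adar, Zc3hav1 and Tlr3. Of all genes, 5.09% rose in spontaneous and 8.6% in implanted tumours. Oas1a, which makes the activator of RNase L, went from 5.55 ± 0.82 to 75.9 ± 0.23 CPM in spontaneous and from 23.7 ± 6.39 to 144 ± 39.8 CPM in implanted tumours. Eif2ak2, the RNA-activated kinase PKR, rose by 1.64 ± 0.11 in spontaneous and 1.22 ± 0.11 in implanted tumours, and Adar, which edits double-stranded RNA, by 1.498 ± 0.12 and 1.46 ± 0.12. Of the 8 other DNA sensors tested, 3 rose and 1 fell in each model (median 0.13 and -0.17). Those that rose were the related genes Ifi203, Ifi204 and Ifi205, whose reads may be shared between near-identical copies, and the one that fell was Hmgb1, an abundant chromatin protein (-0.31 ± 0.07 and -0.49 ± 0.07). Ifi205 reached the filter of 5 CPM only in the implanted cGAMP libraries (5.33 ± 0.16 CPM), so its rise there was favoured by the filter. It was at 0.90 ± 0.55 CPM in implanted PBS, 0 CPM in spontaneous PBS and 2.27 ± 0.46 CPM in spontaneous cGAMP libraries.

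Of the 14 tested genes of STING trafficking and turnover, 2 rose in each model and 2 fell in implanted tumours (median -0.01 and -0.10), so 4 of 14 were called there, near the 25.0% of all genes. Usp18, known as a brake on interferon receptor signalling, went from 9.63 ± 3.67 to 160 ± 1.98 CPM in spontaneous and from 23.2 ± 5.20 to 260.5 ± 37.3 CPM in implanted tumours. Trim56, a ubiquitin ligase, rose by 0.63 ± 0.15 and 0.60 ± 0.15. Tmem203 (-0.63 ± 0.11) and Rnf26 (-0.80 ± 0.23) fell in implanted tumours. Among the 6 tested genes of cGAMP transport and hydrolysis none rose, where 5.09% of all genes rose in spontaneous and 8.6% in implanted tumours. With 6 genes this says little. Enpp1, listed for hydrolysis, Slc19a1 and Lrrc8e were not tested. Lrrc8c (-0.34 ± 0.10) and Gja1 (-0.34 ± 0.09) fell in spontaneous and Lrrc8b (-0.76 ± 0.16) in implanted tumours. They encode subunits of volume-regulated anion channels and the gap junction protein connexin 43.

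Of the 7 nucleases, 1 rose in spontaneous tumours and 3 rose and 1 fell in implanted ones (median 0.24 and 0.16). Samhd1, which removes deoxynucleotides, went from 56.5 ± 0.87 to 219 ± 2.24 CPM in spontaneous and from 116 ± 32.4 to 330 ± 3.76 CPM in implanted tumours, where Dnase1l3 (1.37 ± 0.39) and Dnase2a (1.03 ± 0.22) rose and Rnaseh2c fell (-0.78 ± 0.10). Of the 5 partners of ZBP1, 2 rose in spontaneous and 3 in implanted tumours (median 0.34 and 0.54). For comparison, 12.7% of all genes were called in spontaneous tumours, 5.09% as higher, and 25.0% in implanted tumours, 8.6% as higher. With 7 and 5 genes, these counts say little about either list. Mlkl, the protein that breaks the membrane in necroptosis, went from 15.2 ± 0.44 to 55.6 ± 3.72 CPM in spontaneous and from 26.5 ± 3.32 to 81.2 ± 4.20 CPM in implanted tumours. Casp8 rose by 0.37 ± 0.08 and 0.67 ± 0.08, and Ripk3, the kinase between ZBP1 and MLKL, was called in implanted tumours (0.54 ± 0.15, limma, adjusted p = 0.0247). Several of the smaller changes lost their call in at least 1 alternative, among them Hmgb1, Casp8, Lrrc8c, Gja1 and Tomm70a in spontaneous, Ripk3, Rnf26, Lrrc8b, Dnase1l3 and Dnase2a in implanted, and Trim56 and Ifi205 in both.

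**Figure D5:**
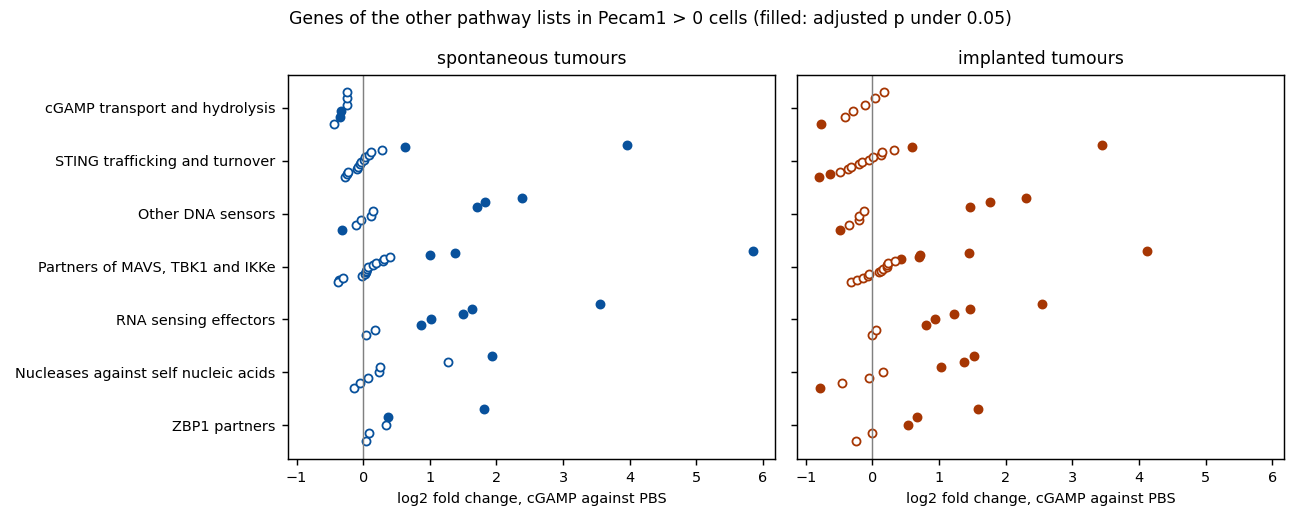
Log2 fold change after cGAMP (x axis) of the 64 tested genes of the 7 other pathway lists in Pecam1 > 0 cells, in spontaneous (left) and implanted tumours (right). Filled points have an adjusted p under 0.05. The farthest point is Irf7, at 5.85 and 4.12, and none of the 6 tested genes of cGAMP transport and hydrolysis rose.

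Genes with the most similar profile over the 8 libraries were looked up among the 8374 genes that averaged 10 CPM or more. These are descriptions over libraries that share 4 groups. Zbp1 was closest to Psmb8, Gbp9 and Gbp7 (Pearson r = 0.999 for each), and Ifih1 to Phf11b, Sp110 and Ddx60 (r = 0.999, 0.999 and 0.999). Dhx58 was closest to Ifit2, Sp140 and B2m (r = 0.997, 0.997 and 0.995), and Ddx58 to Trafd1, Rnf114 and Samd9l (r = 0.997, 0.996 and 0.996). Tmem173 was closest to Tnfrsf9, Adamts4 and Pgs1 (r = 0.988, 0.9745 and 0.973) and Tbk1 to Spats2l, Zfp503 and Tm9sf4 (r = 0.983, 0.974 and 0.972). For the 2 members that were not called the values were lower, with Ssr4, Plod2 and Fdft1 for Mb21d1 (r = 0.960, 0.955 and 0.943) and Ahnak2, Oxsr1 and Manea for Mavs (r = 0.882, 0.869 and 0.869).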

How the data were processed

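ECs sorted from tumours of 2 mice per group were sequenced. The authors mapped reads to mm10 with Cell Ranger (3.0.0 in the submitters' processing notes, which also list Seurat 3.1.1), removed cells with under 500 genes or over 10% mitochondrial transcripts and genes in under 3 cells, and deposited natural log values per cell, ln(1 + UMIs × 10000 / total). Back on the linear scale, dividing by the lowest value of a cell gave whole UMIs (tolerance 0.01) for 100% of values. No doublet caller was run here, and how the deposited cells were chosen from those sequenced is not settled.

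From these, the mean CPM over Pecam1 > 0 cells per library was computed (Python 3.11.15), with all 8 libraries in 1 fit of limma 3.58.1 (R 4.3.3, eBayes with trend) on log2(CPM + 1) for genes that reached 5 CPM in 2 or more libraries. A pseudocount of 1 CPM understates changes of low genes. Population pairs were fitted with the library as a block, for libraries with at least 20 cells of a class. A class also needed 2 detected list genes. On simulated data, the implanted response called 91 of 100 genes changed 2-fold and 100 of 100 changed 4-fold, with 11 unchanged genes, among 10109. The difference of the responses called 59 of 100 and 100 of 100, with 9 unchanged genes, so a member whose response differs 2-fold could be missed there. The simulation gave every gene the same spread between libraries, beside counting noise. It changed 200 genes, where 2609 were called in the implanted response. These shares need not hold for members with a larger spread. The depth, 7863535 to 16506086 UMIs per library, gave 64 to 193 UMIs of Mb21d1 and 77 to 140 of Mavs per library.

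Members and lists were chosen with earlier results of these data known. All members were named, with up to 3 rises and 3 falls of each other list among called genes of each response, and the 3 genes most similar to each member. Promoters were read from RefSeq, and protein sequences were not used here. Because 2 mice stand for each group, p-values measure the spread between these libraries. Alternatives were another pseudocount, filters, scaling, cell sets, a replicate block and leaving out each library.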

Additional observations from a re-analysis of the deposited data

Results flagged for a closer look

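The response of Zbp1 to cGAMP differed between the models by a test of the difference itself, -2.68 ± 0.33 on the log2 scale (implanted minus spontaneous, limma, adjusted p = 0.021). Its level after PBS was 5.85 ± 0.93 CPM (mean ± SD, n = 2) in spontaneous and 67.9 ± 29.4 CPM in implanted tumours, and after cGAMP 234 ± 8.01 and 352 ± 10.6 CPM. Over 18 alternatives the adjusted p of this difference ranged from 0.000102 to 0.154, and 14 called it. The immune markers summed to 195 and 71.2 CPM in implanted cGAMP libraries and to 26.7 and 14.2 CPM in implanted PBS libraries. The mural markers summed to 909 and 686 CPM in spontaneous cGAMP libraries and to 216 and 588 CPM in spontaneous PBS libraries. The call of the difference was kept without cells that carried at least 3 markers of another lineage. Beyond that fit, the part of RNA from other cells in the result was not tested.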

How the results depend on the processing

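Single members were refitted under 1312 combinations of comparison and alternative. The call or its absence was kept in 1237, lost in 52 and gained in 23, and no called value changed sign. The number of called members stayed within 1.5 times in 143 of 164 alternatives. With no filter on low values, 0 members were called in the difference of the responses and 0 between the models after cGAMP. With UMIs summed per library, 5 were called between the models after PBS and 1 after cGAMP. After cGAMP 1 was called with all deposited cells and 1 without cells carrying markers of another lineage. With at least 2000 UMIs per cell, 0 members differed between Pecam1 > 0 and Pecam1 = 0 cells and 3 in proliferative-marker cells. The cause was not tested.

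With 1 library left out in turn, 4 to 5 members were called in the spontaneous and 5 to 6 in the implanted response, 0 to 1 in their difference, 2 to 4 between models after PBS and 0 to 3 after cGAMP. The ranges were 1 to 1 for Pecam1 > 0 cells, 2 to 4 for arterial-marker, 1 to 3 for tip, 4 to 4 for venous, 2 to 3 for AQP7, 3 to 5 for proliferative and 3 to 4 for lymphatic ones. With median-of-ratios scaling, 65.3% of called genes were higher between models after PBS (43.3% otherwise) and 58.3% after cGAMP (38.0%). Summing UMIs gave 2839 called genes in the spontaneous response against 1322, and 3722 against 2609 in the implanted one.

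The replicate numbers did not pair the libraries (correlations of same-numbered deviations -0.22 to 0.12). With a replicate block, 4 members were called in the spontaneous and 6 in the implanted response, 1 in their difference, 3 between models after PBS and 2 after cGAMP, the same counts as without it. With the spontaneous PBS numbers crossed, an alternative chosen after seeing the data, 4 were called in the spontaneous response and 3 between models after PBS. Members at about 10 CPM or less (Mb21d1, Mavs, Ikbke) rest on few UMIs, and 2 libraries per group set the precision of every interval.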
